A study of Mus musculus with 4 samples.

Results

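miR-21a was followed through both strands of its hairpin, mmu-miR-21a-5p and mmu-miR-21a-3p, among the RISC-bound short RNAs (R-sRNAs) of the mouse brain. A sequence was taken as a member when the miRNA name in the table equalled either of these names. The rule found 2 of 1029 miRNA names and 141 of 85704 sequences, 123 for miR-21a-5p and 18 for miR-21a-3p. In the aging experiment used here, Ago proteins were pulled out of lysates with a peptide of their partner GW182. The small RNAs they held were sequenced (Ago-RP-Seq). The paper reports another set of young and old mouse brains, which was not used. Cortex and hippocampus were pooled, with 250 mg of tissue per library in the labels and less in the methods. The groups were 2-month-old (young) and 18-month-old (old) BL6 mice, which the methods give as C57BL/6 J males with no transgene or treatment. Each age had 2 libraries. The sources used here do not say whether the libraries of an age came from separate mice, so p-values measure only the spread between these libraries.

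A miRNA hairpin yields a duplex whose arms come from its 5′ and 3′ sides, and usually one arm, the guide, is loaded into the RISC while the other is discarded. The guide finds its target mRNAs mainly through its seed, the bases after its 5′ end. miR-21 is known as a miRNA of proliferating, injured and inflamed tissue that lowers Pdcd4, and in the brain it is best known from reactive glia. It is also one of the miRNAs most often raised in tumours.

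The mature forms are shown here because the seed, written in capitals (bases 2 to 8), decides how each read is scored. They are RefSeq sequences on GRCm38.p6, written 5′ to 3′.
mmu-miR-21a-5p: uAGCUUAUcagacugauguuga
mmu-miR-21a-3p: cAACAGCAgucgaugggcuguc
The seeds of the arms differ in sequence and in toxicity. The study scores bases 2 to 7, the 6mer seed, by the mean viability of 3 mouse cell lines transfected with it, in percent of the control. AGCUUA of miR-21a-5p scored 80.2%, and AACAGC of miR-21a-3p scored 51.0%, on a scale that ran from 3.3% to 108.5% over the table. The members therefore carried a nontoxic and a more toxic 6mer seed on the same hairpin.

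The Mir21a gene lay on the minus strand of chromosome 11, at chr11:86584067-86584158 of GRCm38, with miR-21a-5p at chr11:86584120-86584141 and miR-21a-3p at chr11:86584082-86584103. In the GENCODE annotation this was inside exon 12 of Vmp1, in the 3′ UTR that runs from 86583865 to 86585310. Vmp1 encodes a membrane protein of the endoplasmic reticulum that is needed for autophagy. The table listed 141 of the 141 member sequences under the Vmp1 mRNA in its column of RNA classes, although their miRNA names were given. By that column alone they would be counted as mRNA fragments. The same column placed most of the CPM of 55 of 456 miRNAs under an RNA class other than miRNA.

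The libraries held 9067007 to 11388999 reads, recovered from the steps of the deposited counts per 1000000 reads (CPM), and 3 reads were worth 0.263 to 0.331 CPM. A read counts once whatever its length, so CPM needs no correction for length. How well each sequence passed adapter ligation and PCR was not measured. Ranks and ratios between miRNAs or arms therefore compare reads and not molecules. The brain markers miR-124-3p, miR-9-5p and miR-128-3p summed to 169186 to 195706 CPM, while the liver marker miR-122-5p was at 5.01 to 7.11 CPM. The muscle markers miR-1a-3p and miR-133a-3p, which should be near 0 in brain, lay between 55.0 and 147 CPM. Blood and vessel miRNAs were in the tissue as well, at 1846 to 3566 CPM for the 3 red blood cell miRNAs and 7590 to 15657 CPM for the 3 vessel miRNAs.

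miR-21a-5p was abundant in the RISC at both ages and higher in the older mice. Its level was 4266 CPM and 3966 CPM in 2-month replicates 1 and 2. It was 5386 CPM and 5565 CPM in 18-month replicates 1 and 2. Both 18-month libraries were above both 2-month libraries, as was the case for 12.1% of the 456 tested miRNAs. The mean was 4116 ± 211 CPM (SD, n = 2) in young and 5476 ± 127 CPM (SD, n = 2) in old mice, a 1.33-fold higher mean level at 18 months. The values rest on 44724 to 56956 reads per library, so counting error was small beside the spread between replicates.

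This difference did not pass the test. limma on log2(CPM + 1) over 456 miRNAs gave a log2 difference of 0.41 (SE 0.20), an unadjusted p of 0.0824 and an adjusted p of 0.360. The study counts rows with an unadjusted p under 0.05. By that threshold limma called 16.2% of the tested miRNAs, 4.17% higher and 12.1% lower in old mice, and 0.219% after adjustment. The median miRNA was lower at 18 months by a log2 difference of -0.22, and relative to that median miR-21a-5p was higher by 0.63. When the libraries were scaled to the typical miRNA in place of the total of reads, the log2 difference was 0.62 with an unadjusted limma p of 0.0194, and this scaling called 14.0% of all miRNAs. edgeR on the recovered reads gave 0.64 with an unadjusted p of 0.0202 (13.6% of miRNAs called). DESeq2 gave 0.62 with an unadjusted p of 0.00895 (15.1% called, and 4.17% after adjustment). The adjusted p-values were 0.231, 0.247 and 0.117 in this order. miR-21a-5p was thus past the unadjusted threshold only where the scaling followed the typical miRNA, and in none of these fits after adjustment. In bulk tissue, a change in the number of cells of a type and a change in RNA per cell cannot be told apart.

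Some sequences listed under Vmp1 had no miRNA name, and those near miR-21a had higher sums in the older mice, which were not tested. Of 111 such sequences under Vmp1, 104 were within 3 mismatches of miR-21a-5p. These 104 summed to 57.2 and 47.6 CPM in the young and 66.2 and 68.4 CPM in the old libraries. At so few mismatches they are not an independent measure of the level of miR-21a-5p. A further 4 were near miR-21a-3p and shared 1 base change from it, G6C, counted from 1 at its 5′ end. These 4 summed to 1.34 and 0.264 CPM in the young and 2.36 and 6.95 CPM in the old libraries. Human miR-21-3p is known to carry that base, and the mature 5p arm has the same sequence in human and mouse, so a human read of it would be counted as miR-21a-5p. Whether such reads had a part in the level of miR-21a-5p was not tested. Without 18-month replicate 2, the library with most of the G6C reads, the log2 difference of miR-21a-5p was 0.39. Leaving out any 1 library gave 0.36 to 0.46. As 18-month replicate 1 held G6C reads too, this cannot decide the question.

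miR-21a-3p was scarce, and its libraries did not separate by age. Its level was 19.6 CPM (206 reads, 95% exact Poisson interval 17.1 to 22.5 CPM) and 23.1 CPM (263 reads, 20.4 to 26.1 CPM) in young mice. In old mice it was 14.8 CPM (156 reads, 12.5 to 17.3 CPM) and 24.2 CPM (219 reads, 21.1 to 27.6 CPM). The lowest and the highest value were both at 18 months, so the ages overlapped, and the intervals of the 18-month replicates did not meet. Intervals cover counting error only, since PCR copies are not independent molecules. The mean was 21.4 ± 2.44 CPM (SD, n = 2) in young and 19.5 ± 6.65 CPM (SD, n = 2) in old mice. limma gave a log2 difference of -0.16 (SE 0.32) with an unadjusted p of 0.628 and an adjusted p of 0.806. The sign turned when the libraries were scaled to the typical miRNA (0.037) or when 18-month replicate 1 was left out (0.17).

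**Figure D1:**
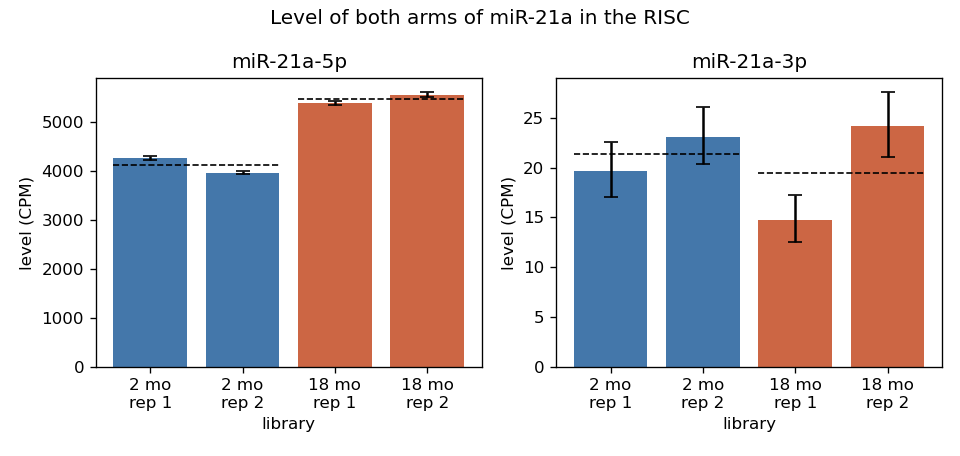
Level of miR-21a-5p (left) and miR-21a-3p (right) in CPM in each library. Bars are single libraries with 95% exact Poisson intervals of the counting error, dashed lines are the means of each age, and the vertical axes differ. The 18-month bars of miR-21a-5p (5386 and 5565 CPM) are above both 2-month bars, while those of miR-21a-3p (14.8 and 24.2 CPM) lie on either side of them.

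**Figure D2:**
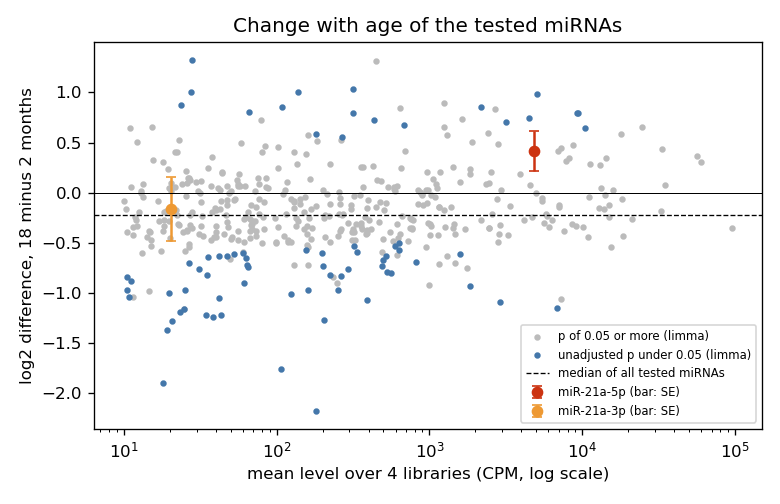
Log2 difference between the ages (18 minus 2 months, limma on log2(CPM + 1)) against the mean level (log axis) for the 456 tested miRNAs. miR-21a-5p (0.41) lies above the dashed median of all tested miRNAs (-0.22) and miR-21a-3p (-0.16) beside it, with bars for the SE.

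By mean CPM, miR-21a-5p ranked 50 and miR-21a-3p ranked 409 of the miRNAs. Within the libraries miR-21a-5p ranked 51 and 56 at 2 months and 47 and 44 at 18 months. Its neighbours in the order were miR-141-3p (5074 CPM, mean of 4 libraries) and miR-27a-3p (4976 CPM) above it and miR-338-3p (4711 CPM) and miR-181b-5p (4567 CPM) below it. The libraries of each neighbour overlapped those of miR-21a-5p, so the order among these 5 miRNAs was not resolved. miR-27a-3p ranged from 4062 to 5957 CPM and miR-338-3p, a miRNA of oligodendrocytes, from 3232 to 5679 CPM. miR-141-3p, a member of the miR-200 family of epithelia, was also higher in both 18-month libraries, with 2446 and 4522 CPM in young and 5525 and 7804 CPM in old mice.

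The preference for the 5p arm was among the strongest of the hairpins whose arms both reached a mean of 10 CPM. Hairpins with a scarcer arm were not compared, and these could have a stronger preference. For each miR-21a-3p read there were 217 and 172 miR-21a-5p reads in 2-month replicates 1 and 2, and 365 and 230 in 18-month replicates 1 and 2. On the log2 scale the ratio was 7.76 and 7.42 at 2 months and 8.51 and 7.85 at 18 months. Both 18-month ratios were above both 2-month ratios, which held for 15.5% of the 142 hairpins whose arms both reached a mean of 10 CPM. Of these hairpins, 85 had more 5p than 3p reads, the median log2 ratio was 1.07, and 4 (miR-30d, miR-182, miR-99a and miR-100) had a higher ratio than miR-21a. The 4 unnamed sequences with G6C were not counted as 3p reads. For each 100 reads of miR-21a-3p they had 6.80 and 1.14 reads at 2 months and 16.0 and 28.8 at 18 months. If they were counted, the ratio of 18-month replicate 2 would fall below that of 2-month replicate 1, and the ages would overlap.

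The means of the log2 ratio were 7.59 ± 0.24 (SD, n = 2) and 8.18 ± 0.47 (SD, n = 2). The difference of 0.59 had the lowest p open to a two-sided exact permutation test with 2 libraries per age, which is above 0.05, so no single value per library can pass in this design. A larger difference in the same direction was seen in 11 of the 142 hairpins, whose median difference was -0.11. The replicate gap of miR-21a was 0.34 at 2 months and 0.66 at 18 months, against medians of 0.40 and 0.37 over the hairpins. With sequences of at least 1 CPM alone, the ages overlapped (exact permutation p = 0.667, n = 2 per age). The 3p reads, 156 to 263 per library, limit the precision of this ratio.

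**Figure D3:**
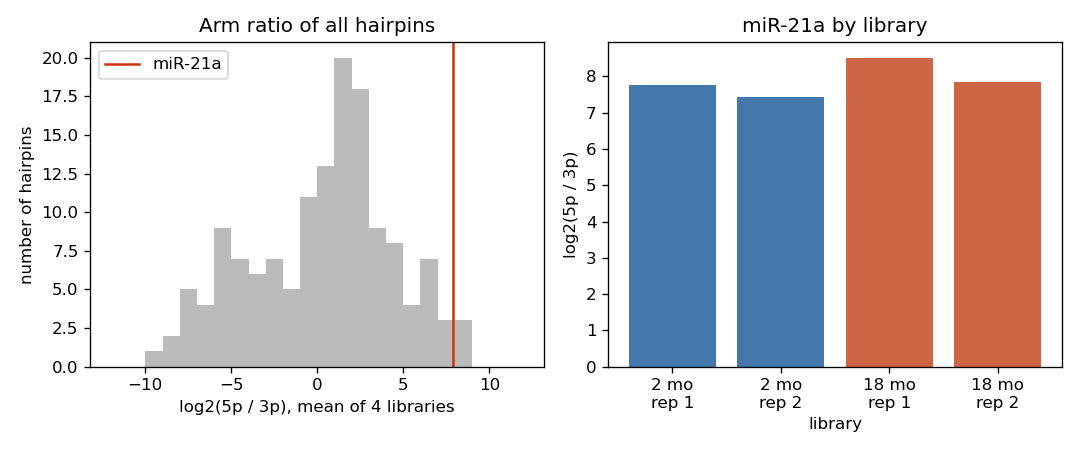
Ratio of 5p to 3p reads on the log2 scale. The left panel counts the 142 hairpins by their mean over the 4 libraries, with miR-21a as a red line near the upper end, and the right panel gives miR-21a by library, 7.76 and 7.42 at 2 months and 8.51 and 7.85 at 18 months.

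Nearly all miR-21a-5p reads began at the reference 5′ end and so kept the reference 6mer seed. The share of miR-21a-5p reads with AGCUUA was 98.3% and 98.8% at 2 months and 98.7% and 98.8% at 18 months. The ages overlapped (difference 0.21 percentage points, exact permutation p = 1, n = 2 per age). Of the 123 sequences, 55 carried this seed. The shifted seeds UAGCUU, 1 base upstream, and GCUUAU, 1 base downstream, held 0.53% and 0.33% of the arm, with viabilities of 72.5% and 80.7%. Part of the UAGCUU reads had a first base that does not match the hairpin. Those that match it there made up 0.32% to 0.43% of the arm in each library. Weighted by its reads, the viability of miR-21a-5p was 80.1% in each library.

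The seed AGCUUA belonged almost wholly to this miRNA. Of all CPM with AGCUUA in the table, miR-21a-5p held 99.0% to 99.1% in each library. The rest was mostly sequences without a miRNA name (45.2 CPM, mean of 4 libraries). The mouse relatives miR-21b, miR-21c and miR-590-5p, listed by name or seed, had no row under these names. Among reads whose 6mer seed had a viability of 80% or more, the miR-21a-5p reads with any such seed made up 4.05% and 3.305% at 2 months and 4.60% and 4.54% at 18 months. The cutoff of 80% was set for this comparison and lies just below the 80.2% of AGCUUA, so a slightly higher cutoff would leave out most of these reads. The 18-month shares were both above the 2-month shares, as was the level of miR-21a-5p itself. The shares were not tested.

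The seed of miR-21a-3p was shared and less constant. AACAGC was carried by 92.7% and 85.2% of the miR-21a-3p reads at 2 months and by 97.4% and 92.7% at 18 months, a difference of 6.12 percentage points (exact permutation p = 0.667, n = 2 per age). A start 1 base downstream gave ACAGCA, which held 6.58% of the arm and has a viability of 75.5% in place of 51.0%. CAGCAG, from a start 2 bases downstream, held 1.02% and was absent from both replicate 1 libraries. miR-21a-3p supplied 22.3% to 36.5% of all CPM with AACAGC, so most reads with that seed came from other sequences.
ACAGCA read: aACAGCAGtcgatgggctgtct
CAGCAG read: aCAGCAGTcgatgggctgtct
Capitals mark bases 2 to 8 of each read.

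The arms ended at several positions. The most abundant sequences are shown as the reads were deposited, with bases past the last RefSeq base in capitals, because the 3′ end was what varied most between libraries.
5p, 22 nt: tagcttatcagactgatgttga
5p, 21 nt: tagcttatcagactgatgttg
5p, 23 nt: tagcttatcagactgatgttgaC
5p, 20 nt: tagcttatcagactgatgtt
5p, 24 nt: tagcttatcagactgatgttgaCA
5p, 23 nt with A: tagcttatcagactgatgttgaA
3p, 21 nt: caacagcagtcgatgggctgt
3p, 22 nt: caacagcagtcgatgggctgtc
3p, 23 nt: caacagcagtcgatgggctgtcT
3p, from base 2: aacagcagtcgatgggctgtcT
The C of the 23-nt 5p form and the T of the 3p forms match the hairpin, while the final A of the 24-nt 5p form and of the 23-nt form with A does not.

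The 22-nt reference form was the most abundant miR-21a-5p sequence in each library. It stood at 1766 and 1742 CPM in young and 2601 and 2530 CPM in old mice, without overlap. limma over 14287 sequences gave a log2 difference of 0.55 (SE 0.25) with an unadjusted p of 0.0537 and an adjusted p of 0.499. The 21-nt form was at 1043 and 1495 CPM in young and 1760 and 1711 CPM in old mice, again without overlap (log2 difference 0.47, unadjusted limma p of 0.123). The 23-nt form went another way, with 1132 and 475 CPM in young and 644 and 925 CPM in old mice, so that the extremes were the replicates of 1 age. Neither of the forms without overlap passed the test, and 20.5% of all tested sequences were higher in old mice without overlap.

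Read ends set 2-month replicate 1 apart. The share of miR-21a-5p reads that ended at base 23 was 26.8% in this library and 12.1% in 2-month replicate 2, against 12.1% and 16.8% at 18 months. The difference between the ages was -5.01 percentage points (exact permutation p = 1, n = 2 per age), and without 2-month replicate 1 it was 2.34. Reads that ended at base 21 were correspondingly fewer in that library, 24.5% against 30.7% to 37.7% in the others. The mean length was 22.03 nt in 2-month replicate 1 and 21.75, 21.77 and 21.83 nt in the other libraries. Its excess over the miRNA's own mean of the 4 libraries, 0.182 nt, was passed by 1.75% of the 456 miRNAs, whose median excess in that library was 0.0251 nt. What set the longer ends was not tested.

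**Figure D4:**
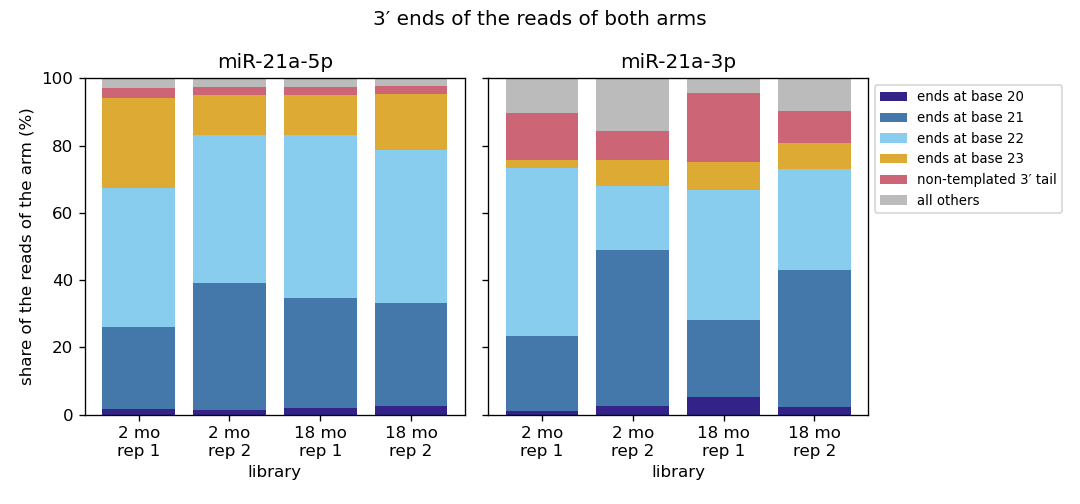
Shares of the reads of miR-21a-5p (left) and miR-21a-3p (right) by 3′ end in each library, in percent of the arm. Coloured segments are reads that start at the reference 5′ end and end at base 20 to 23 of the arm, reads with a non-templated 3′ tail, and all others. The base 23 segment of miR-21a-5p is largest in 2-month replicate 1, and the base 21 segment of miR-21a-3p is larger in the replicate 2 libraries (46.4% and 40.6%) than in the replicate 1 libraries (22.3% and 23.1%).

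Tails that do not match the hairpin were short and mostly a single A. They were on 2.93% and 2.47% of the miR-21a-5p reads at 2 months and on 2.54% and 2.30% at 18 months, a difference of -0.28 percentage points (exact permutation p = 0.667, n = 2 per age). A single A alone was on 1.81% to 2.38% of the reads, and a single U on 0.0885% to 0.194%. miR-21a-3p was tailed more often, on 14.1% and 8.75% of its reads at 2 months and 20.5% and 9.59% at 18 months. Here the replicates of an age lay further apart than the ages.

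The 3p arm ended at base 21 in 22.3% and 46.4% of its reads at 2 months and in 23.1% and 40.6% at 18 months. It ended at base 22 in 50.0% and 19.0% at 2 months and in 38.5% and 30.1% at 18 months. The replicate 1 libraries of both ages had more reads ending at base 22, and the replicate 2 libraries more ending at base 21. The replicate numbers are names in the labels with no stated batch behind them. The mean length was 21.84, 21.45, 21.71 and 21.70 nt in the same order, with a difference of 0.0613 nt between the ages (exact permutation p = 1, n = 2 per age).

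Among the member sequences, a few forms of miR-21a-5p passed the unadjusted threshold. Of the 36 miR-21a-5p and 4 miR-21a-3p sequences that averaged 1 CPM or more, 4 did with limma. All 4 were of miR-21a-5p and higher in old mice. Of the 14287 tested sequences, 10.1% passed in either direction and 5.87% were higher. A count of 4 in 40 is near that background. After adjustment limma passed 0.042% of all sequences and no member, with 0.224 as the lowest adjusted p of a member. DESeq2 passed 1.22% of the 7639 sequences to which it gave an adjusted p, and 1 member, the 20-nt form with an added A. The 4 were picked by this threshold and are shown because the matching bases of each stop short of base 22 of the arm. Tail bases are in capitals and are left out of the lengths given. Other forms that stop short of base 22 did not pass, among them the 21-nt form (unadjusted limma p of 0.123).
20 nt: tagcttatcagactgatgtt
20 nt with A: tagcttatcagactgatgttA
19 nt: tagcttatcagactgatgt
21 nt with T: tagcttatcagactgatgttgT
The 20-nt form rose from 71.7 and 58.4 CPM to 113 and 141 CPM (log2 difference 0.95, SE 0.30, unadjusted limma p of 0.0114, adjusted p of 0.367). Its form with an added A rose from 6.49 and 6.32 CPM to 20.9 and 17.6 CPM (log2 difference 1.45, SE 0.32, unadjusted limma p of 0.00125). Its adjusted p was 0.224 with limma, 0.281 with edgeR and 0.0357 with DESeq2. The 19-nt form rose from 6.30 and 6.32 CPM to 16.1 and 9.82 CPM (unadjusted limma p of 0.0303), and the 21-nt form with an added T from 2.86 and 1.84 CPM to 4.35 and 5.85 CPM (unadjusted limma p of 0.0348). With DESeq2 the 21-nt form with an added T did not pass the unadjusted threshold (0.0763). These are changes in level, and the share of each form in the arm was not part of the test.

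Over the 36 tested miR-21a-5p sequences, 25 had a positive log2 difference, and the median was 0.19 against -0.01 over all tested sequences. Of these 36, 11 were higher in old mice without overlap, as were 20.5% of all tested sequences, and 3 were lower, as were 21.3%. Among the latter was the 24-nt form ending in CA, at 62.6 and 47.5 CPM in young and 46.7 and 41.0 CPM in old mice. None of these 3 passed with limma. A 19-nt form that starts at base 4 was also among the 3, at 5.82 and 1.23 CPM in young and 1.14 and 0.772 CPM in old mice. It passed the unadjusted threshold with edgeR (log2 difference -1.83, unadjusted p of 0.0431, adjusted p of 0.510) and with DESeq2 (-1.84, unadjusted p of 0.0399). The 4 miR-21a-3p sequences had log2 differences of -0.54 to 0.33, and each overlapped between the ages.

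The miRNAs whose levels over the 4 libraries were most like those of miR-21a-5p were miR-30a-5p, miR-339-5p, miR-344-3p, miR-30b-5p and miR-153-5p. Likeness was the root mean square difference of log2(CPM + 1) after each miRNA was centred on its own mean. It was 0.0728 to 0.111 for these 5, against a median of 0.380 over 455 miRNAs. miR-30a-5p stood at 7060 and 6779 CPM in young and 8048 and 9202 CPM in old mice. miR-339-5p stood at 220 and 215 CPM in young and 310 and 330 CPM in old mice. For miR-21a-3p the nearest were miR-190a-5p (0.0334), miR-20a-5p and miR-34c-5p, which were likewise lowest in 18-month replicate 1. With 4 libraries these are descriptions of level only.

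miRNAs known from immune cells and inflammation, with which miR-21 is often named, had no call. Of the 7 listed, 6 reached a mean of 10 CPM, and none of these 6 passed an unadjusted p under 0.05 with limma, edgeR or DESeq2, where 16.2%, 13.6% and 15.1% of all miRNAs did. Their median log2 difference was -0.13, against -0.22 over all 456 miRNAs. miR-146a-5p, a brake on NF-kB signalling, was at 179 and 221 CPM in young and 280 and 210 CPM in old mice. miR-223-3p, a miRNA of myeloid cells, was at 49.7 and 63.0 CPM in young and 54.8 and 63.0 CPM in old mice, and both overlapped between the ages. miR-142a-5p, of blood cells, was at 176 and 208 CPM in young and 129 and 173 CPM in old mice. It and miR-150-5p, of lymphocytes, were lower in old mice without overlap, as were 41.4% of all tested miRNAs. miR-155-5p, induced in activated macrophages and microglia, was at 3.25 to 4.96 CPM and was not tested.

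Markers of other cell types moved with age in part. The 3 vessel miRNAs were each lower in both 18-month libraries, as were 41.4% of all tested miRNAs. The endothelial miR-126a-3p fell from 9242 and 8854 CPM to 2557 and 6489 CPM (log2 difference -1.15, unadjusted limma p of 0.0345, adjusted p of 0.266), although edgeR and DESeq2 gave no call for it. The muscle markers went opposite ways. miR-133a-3p rose from 104 and 55.0 CPM to 129 and 147 CPM (log2 difference 0.86, unadjusted limma p of 0.0395, adjusted p of 0.269). miR-1a-3p fell from 89.8 and 95.4 CPM to 62.2 and 83.3 CPM (log2 difference -0.36, unadjusted limma p of 0.183). None of the 3 red blood cell, 3 brain and 2 oligodendrocyte miRNAs passed with limma, edgeR or DESeq2. The part of the cell makeup in the level of miR-21a was not tested.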

How the data were processed

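The deposited table gives 85704 sequences in 4 libraries. The authors trimmed the reads (Trim Galore is named in the submitters' processing notes), dropped rare reads, named sequences by BLAST against mouse small RNA lists and deposited counts scaled to a common library total (CPM). Versions are not given in the sources used here. The deposited viability score is theirs. In each library 100% of nonzero values were whole reads within 0.001 CPM. Each sequence had at least 4 reads over the 4 libraries.

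Rows were summed by miRNA name. Calls came from limma with trend on log2(CPM + 1), which understates changes of low values, for miRNAs averaging 10 CPM or more and sequences averaging 1 CPM or more, fitted over all of them with Benjamini-Hochberg adjustment. Single values per library were compared by two-sided exact permutation tests, which cannot go below a p of 0.333. Reads were aligned to the RefSeq hairpin. A 3′ tail is up to 3 bases, each differing from it. Of 456 miRNAs, limma called 74 (1 after adjustment), edgeR on the recovered reads called 62 (0 after adjustment) and DESeq2 69 (19). Of 14287 sequences limma called 1443 and edgeR 1360. Fits were checked on simulated counts.

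The members and lists were chosen with earlier results of these data known. Named were both arms, their 6 and 4 most abundant sequences, shifted seeds with at least 1% of an arm (UAGCUU and GCUUAU are extra), up to 5 member sequences with an unadjusted p under 0.05, neighbours in rank (2 above, 2 below), the miRNAs most like each arm (5 and 3), relatives, immune miRNAs and cell type markers. Hairpins above miR-21a in arm ratio and the sequences without a miRNA name were added after their values were seen. No library was a copy of another (chi-square per degree of freedom 484 to 853). Versions were DESeq2 1.42.0, edgeR 4.0.16, limma 3.58.1, R 4.3.3, pandas 2.3.3, scipy 1.17.1 and Python 3.11.15.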

Additional observations from a re-analysis of the deposited data

Results flagged for a closer look

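The 4 sequences near miR-21a-3p that carry G6C have no miRNA name, so they are no members and entered no test. They summed to 6.95 CPM (63 reads, 95% exact Poisson interval 5.34 to 8.89 CPM) in 18-month replicate 2, above the intervals of both 2-month libraries, which held 14 and 3 reads. In 18-month replicate 1 they had 25 reads. For each 100 reads of miR-21a-3p there were 28.8 of these reads in 18-month replicate 2 and 16.0 in 18-month replicate 1, against 6.80 and 1.14 at 2 months. They share 1 6mer seed with a viability of 53.0%. Their source was not tested.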

How the results depend on the processing

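miR-21a-5p had a positive log2 difference under every alternative run. It passed an unadjusted p under 0.05 with edgeR (0.64), DESeq2 (0.62) and median-of-ratios scaling (0.62), which move the median of all tested miRNAs from -0.22 to 0.01, 0.00 and -0.01. Leaving out 1 library at a time gave 0.36 to 0.46. miR-21a-3p, never past the threshold, turned positive with edgeR (0.078), DESeq2 (0.067) and median-of-ratios scaling (0.037), and ranged from -0.50 to 0.17 with 1 library left out. It has no value under the filter of 100 CPM.

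The miRNAs with an unadjusted p under 0.05 numbered 74, 125 with no filter on low values, 43 with the stricter filter and 1 after adjustment (DESeq2 19, edgeR 0), and 55 to 74 with 1 library left out. The miR-21a sequences numbered 4, 8 with no filter, 2 with the stricter filter and 0 after adjustment (DESeq2 1, edgeR 0), and 2 to 4 with 1 library left out, the 2 being without 2-month replicate 2 and without 18-month replicate 1. With no filter and with the stricter filter other numbers of features were tested.

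Under the replicate block the log2 difference was 0.41 (unadjusted limma p of 0.0784) for miR-21a-5p and -0.16 (unadjusted limma p of 0.536) for miR-21a-3p, and 79 miRNAs and 5 member sequences were called. The numbers join libraries from mice of different ages and are names only.

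With 1 library left out, the difference between the ages ranged from 0.25 to 0.92 for the log2 arm ratio, -0.042 to 0.47 percentage points for the reference seed of miR-21a-5p, -12.4 to 2.34 percentage points for ends at base 23, -0.226 to 0.0496 nt for the length of miR-21a-5p, -0.51 to -0.053 percentage points for its tails, 2.35 to 9.89 percentage points for the reference seed of miR-21a-3p and -0.132 to 0.255 nt for its length. The sign turned without 2-month replicate 1 for the seed, ends and length of miR-21a-5p and without 2-month replicate 2 for the length of miR-21a-3p. No member read was under 18 nt, so that limit changed nothing. Sequences under 3 reads in a library, 0.263 to 0.331 CPM, are beyond what these depths resolve.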
